A study of Mus musculus with 15 samples.

Results

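The genes described here are 39 genes that mammalian cells are known to switch on when oxygen is scarce, together with the subunits and regulators of the hypoxia-inducible factor (HIF), leaving out the enzymes of glycolysis. They were taken by gene symbol from the 54532 genes of the deposited count table, and all 39 were present. RNA was sequenced from bone marrow mesenchymal stem cells (BM-MSCs) of C57BL/6 mice, bought from a supplier and used at passages 3 to 5. Every culture had received 5 Gy of radiation and was then kept for 48 h, so no group was unirradiated. There were 5 groups of 3 libraries: Gel/Laponite, Gel, Gel/Laponite@IL-12, Gel/IL-12 and IR-Con. Gel was a hydrogel of alginate carrying the RGD cell-binding peptide, Gel/Laponite held in addition nanoplatelets of the synthetic clay Laponite, Gel/IL-12 held the cytokine interleukin-12, Gel/Laponite@IL-12 held interleukin-12 adsorbed on the clay, and IR-Con was irradiated and cultured with no gel. The cells were a cultured stock rather than fresh marrow, and the labels do not say whether libraries of a group came from separate cultures, so p-values measure the spread between these libraries, which may be technical. Culture oxygen was not among the variables of the design.

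HIF is a pair of proteins, an oxygen-sensitive alpha subunit (Hif1a or Epas1) and a stable partner (Arnt or Arnt2). When oxygen is available, prolyl hydroxylases of the Egln family mark the alpha subunit and the Vhl ubiquitin ligase sends it for degradation. When oxygen is scarce, or the hydroxylases are otherwise blocked, the alpha subunit persists and binds short DNA elements with the core letters ACGTG or GCGTG near its target genes, several of which (Egln1, Egln3) feed back on the factor itself. The alpha subunit is controlled mostly as a protein, which RNA sequencing does not measure. In bone marrow this programme is known for keeping stromal cells and their secreted factors adapted to a low-oxygen niche.

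Levels are given as CPM, the count of a gene scaled to a common library total, after adjusting that total by the trimmed mean of M-values (TMM), and group differences as log2 fold changes with their standard error (SE) from edgeR's quasi-likelihood test. A gene was called where its p-value, adjusted by Benjamini-Hochberg over the 15590 genes tested, was under 0.05. Of the 39 genes 38 could be tested. Hif3a, another alpha subunit, was below the filter on low counts, with at most 0.278 CPM in any library and no count in 12 of the 15. Library totals ran from 14506459 to 17818982 counts. Replicates of a gel spread by 3.52% to 4.06% (biological coefficient of variation) and those of IR-Con by 17.1%, and IR-Con replicate 3 stood furthest from its group. Comparisons among gels were therefore fitted on the 12 gel libraries, and comparisons against IR-Con on all 15. The 10 mesenchymal marker genes were all expressed, with a summed level of 7382 to 7464 CPM in Gel/Laponite, 7575 to 7709 CPM in Gel, 7224 to 7297 CPM in Gel/Laponite@IL-12, 7429 to 7676 CPM in Gel/IL-12 and 8992 to 12876 CPM in IR-Con. The largest part was Col1a1, with group means of 4179 to 4549 CPM in the gels and 5637 to 9922 CPM over the IR-Con libraries. Single markers went both ways. Averaged over the 4 gels against IR-Con, 3 of the 10 were called higher and 5 lower. Over all genes tested 27.4% were called higher and 27.6% lower. Lepr was low, with group means of 1.23 to 2.87 CPM. The summed level of 8 macrophage and blood markers was 58.9 to 67.5 CPM over the gel libraries and 26.8 to 33.7 CPM in IR-Con. The largest part of that sum was Cd14, with 43.1 to 51.2 CPM over the gels and 13.8 to 14.7 CPM in IR-Con. Group means ran from 7.55 to 10.2 CPM for Cd68, 3.39 to 4.29 CPM for Csf1r and 0.962 to 2.94 CPM for Lyz2. Ptprc, Adgre1, Itgam and Fcgr1 stayed under 1 CPM in every library. The part of these markers in the differences from IR-Con was not tested. The sum of 5 endothelial markers was 5.64 to 10.1 CPM with Emcn at 0. In bulk RNA, fewer cells of a type and less RNA per cell cannot be told apart.

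Many of these genes carry the HIF core letters at their start sites. In 300-base windows of RefSeq's mouse annotation (GRCm38.p6, 250 bases before to 50 after a start), searched for ACGTG and GCGTG on both strands, 31 of the 39 genes had a window and 28 of them (90.3%) held a match, against 46.7% of 27025 genes. A gene can have several windows: counted by window, 83.7% of 43 held a match, against 43.8% of 32851. The background was neither limited to the genes tested here nor matched for base content. The list was itself made of known hypoxia genes, so the contrast is not a finding of these data. Among the genes that rose with Laponite in the gels without IL-12, 16 of 17 with a window held a match, and among the other genes 12 of 14 did. A palindrome CACGTG counts on each strand, and a match is a stretch of letters, not a measured binding site. The bases of these windows that lie before the start and outside the gene as annotated in GENCODE M21 are printed for Bnip3, Fam162a, Egln1 and P4ha1 as examples. They are 4 of the 6 genes that had a single window with bases outside the gene, rose with Laponite alone and had a called interaction, the others being Plod1 and Anxa2, with 1 match each in such bases. Matches to either core, on either strand, are in capitals.
Bnip3, chr7:138909520-138909756, minus strand: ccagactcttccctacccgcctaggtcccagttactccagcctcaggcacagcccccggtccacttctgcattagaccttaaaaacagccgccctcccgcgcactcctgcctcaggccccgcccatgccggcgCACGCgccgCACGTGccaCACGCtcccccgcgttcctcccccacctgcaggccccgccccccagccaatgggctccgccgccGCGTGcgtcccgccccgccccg
Fam162a, chr16:36071595-36071811, minus strand: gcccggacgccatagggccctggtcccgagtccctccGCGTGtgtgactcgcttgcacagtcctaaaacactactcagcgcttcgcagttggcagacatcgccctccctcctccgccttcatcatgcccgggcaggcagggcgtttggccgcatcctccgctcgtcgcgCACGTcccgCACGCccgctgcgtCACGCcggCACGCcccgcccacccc
Egln1, chr8:124949325-124949504, minus strand: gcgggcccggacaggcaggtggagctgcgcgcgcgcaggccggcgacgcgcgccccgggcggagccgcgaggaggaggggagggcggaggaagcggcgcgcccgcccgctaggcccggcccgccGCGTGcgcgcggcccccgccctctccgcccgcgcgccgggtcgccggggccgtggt
P4ha1, chr10:59323046-59323295, plus strand: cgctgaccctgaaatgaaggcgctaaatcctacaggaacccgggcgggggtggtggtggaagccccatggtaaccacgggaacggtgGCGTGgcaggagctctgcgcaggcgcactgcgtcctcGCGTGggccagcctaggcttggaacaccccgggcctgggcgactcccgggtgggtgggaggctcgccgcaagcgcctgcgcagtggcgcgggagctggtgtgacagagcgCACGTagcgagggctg
Bnip3 had 5 matches in the 237 bases printed, Fam162a 5 in 217, P4ha1 3 in 250 and Egln1 1 in 180.

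Set against IR-Con, the gels raised most of these genes. Averaged over the 4 gels, 26 of the 38 tested genes rose and 6 fell, so that 84.2% were called where 55% of all genes tested were called. Over all genes 27.4% were called higher and 27.6% lower. The median log2 fold change was 0.37 over the 38 genes and -0.01 over all genes. The calcium-regulating hormone gene Stc1 rose most, followed by Ankrd37, Egln3, Ddit4 and P4ha2, and the carbonic anhydrase genes Car12 and Car9 fell most. Of the 38 genes, 19 had every gel library above every IR-Con library and 5 every gel library below, against 18% and 15.6% of all genes. Because IR-Con spread more than the gels, the comparison was also made with limma voom, which gave the IR-Con libraries a spread of their own: 21 genes rose and 6 fell. Without IR-Con replicate 3, 35 genes were called, and without IR-Con replicate 1, 28.

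Each gel on its own showed the rise, and Gel/Laponite in the largest number of genes. Gel/Laponite over IR-Con had 27 genes higher and 6 lower (background 44.9% of all genes called, 23.2% higher and 21.7% lower). Gel had 19 higher and 9 lower (44.7%, 22.9% higher and 21.8% lower), so its share that fell was near that of all genes. Gel/Laponite@IL-12 had 24 higher and 5 lower (44.4%, 23% higher and 21.5% lower). Gel/IL-12 had 23 higher and 6 lower (46.5%, 24% higher and 22.6% lower). These 4 comparisons share the same IR-Con libraries. Their median log2 fold changes were 0.55, 0.29, 0.33 and 0.35 in the same order of gels.

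**Figure D1:**
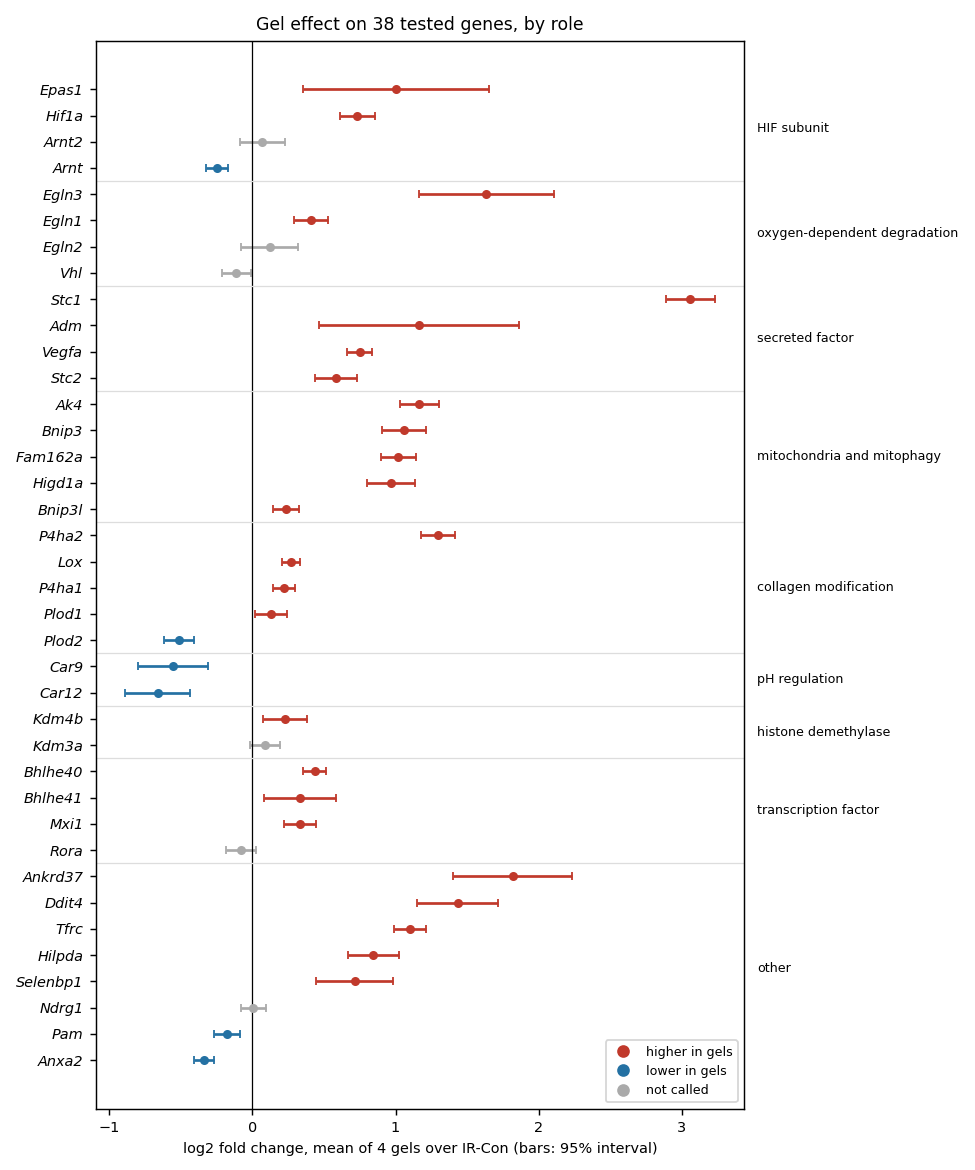
Gel effect (log2 fold change, average of 4 gels against IR-Con) for the 38 tested genes (x axis), grouped by role down the page, with 95% intervals; red genes rose, blue genes fell, grey genes did not pass the threshold. Stc1 lies furthest right at 3.06 and Car12 furthest left at -0.66.

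Among the gels, most of the called genes rose with the clay, and the rise differed between gels without and with IL-12. Laponite without IL-12 (Gel/Laponite over Gel) raised 21 of the 38 genes and lowered 1, Arnt2 (22 called, but 13 without Gel replicate 2 and 16, none lower, with DESeq2), where 5.16% of all genes were called (2.91% higher, 2.26% lower). The 38 genes had a median log2 fold change of 0.18, against -0.0009 for all genes. In 23 of the 38 genes every Gel/Laponite library was above every Gel library, against 11.4% of all genes. In 1, Car12, every one was below, against 9.5% of all genes. Laponite with IL-12 (Gel/Laponite@IL-12 over Gel/IL-12) raised none of the 38 and lowered 3, Stc1, Lox and Bhlhe40, where 4.12% of all genes were called (2.1% higher), and the median was 0.02. At an unadjusted p under 0.05, 7 genes were higher with Laponite and IL-12 and 4 lower, and neither DESeq2 nor limma voom called any higher. Of the 21 genes that rose with Laponite alone, 12 had a positive fold change in the presence of IL-12 and 15 were also higher in the gels than in IR-Con. Of all 38 genes, 22 had such a positive fold change and 26 were higher in the gels, so both shares were near those of the whole list. The 8 macrophage and blood markers summed to 61.0 to 63.9 CPM in Gel/Laponite and 58.9 to 62.6 CPM in Gel. Lyz2 was the one of them called for Laponite without IL-12 (1.16 ± 0.32, adjusted p = 0.0131), with 1.68 to 3.05 CPM in Gel/Laponite and 0.784 to 1.20 CPM in Gel, and its part in the result was not tested.

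The difference between the 2 Laponite effects was tested directly as an interaction. It was lower with IL-12 in 13 genes and higher in 1, Pam, where 3.55% of all genes were called (1.42% higher, 2.14% lower). The median interaction was -0.16 on the log2 scale over the 38 genes and 0.003 over all genes. Of the 21 genes that rose with Laponite alone, 12 were among these 13 and the other of the 13 was Lox. The interaction uses the same 12 libraries as the 2 Laponite comparisons, so these counts are not separate evidence. With all 15 libraries in one fit, where the wider spread of IR-Con enters the error, none of the 14 interactions was called (smallest adjusted p = 0.0749, for Bnip3 and Bhlhe40) and Laponite without IL-12 called 9 genes. In the 12-library fit, leaving out any 1 library left 13 to 15 interactions called.

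Averaged over the gels with and without IL-12, Laponite raised 14 of the 38 genes and lowered 1, Lox, where 5.27% of all genes were called (2.82% higher). The call of Lox ended with no filter on low counts (adjusted p = 0.129), and with all 15 libraries in one fit 7 genes were called. The mean effect of IL-12 over the gels with and without Laponite raised 2, Bnip3 and P4ha2 (log2 fold change 0.10 and 0.10), where 0.327% of all genes were called. Both of these calls ended when Gel replicate 1 was left out (adjusted p = 0.227 and 0.276) and with no filter on low counts (0.053 and 0.061). The effect of IL-12 was also taken apart by kind of gel. Gel/IL-12 over Gel raised 13 genes and lowered none (1.69% of all genes called, 1.21% higher and 0.481% lower), and Gel/Laponite@IL-12 over Gel/Laponite raised none and lowered 9 (1.67%, with 0.757% higher). At an unadjusted p under 0.05, 1 gene was lower in the first comparison and 4 were higher in the second, and neither DESeq2 nor limma voom called any of them. The 13 and 9 calls all ended with all 15 libraries in one fit, and without Gel/Laponite@IL-12 replicate 1 the count with Laponite was 4. Both comparisons were added after the data had been seen, and they share libraries with the interaction. In 25 of the 38 genes the highest of the 4 gel means was that of Gel/Laponite, against 26.2% of all genes, and in 29 the lowest was that of Gel, against 27.9%.

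**Figure D2:**
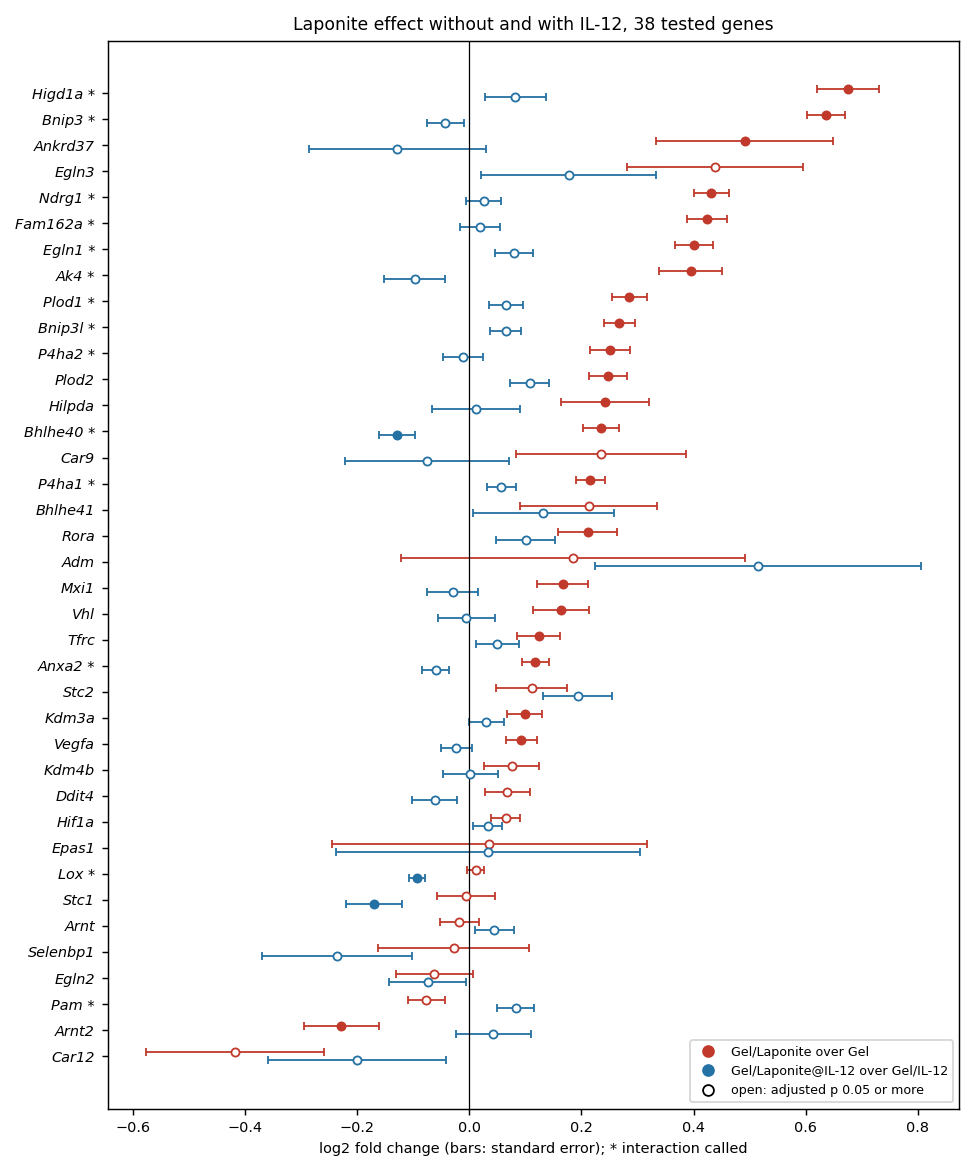
Log2 fold change for Laponite without IL-12 (Gel/Laponite over Gel, red) and with IL-12 (Gel/Laponite@IL-12 over Gel/IL-12, blue) in the 38 tested genes, with standard errors; filled points passed the threshold and a star marks a called interaction. Higd1a and Bnip3 lie furthest right without IL-12, at 0.68 and 0.64, and at 0.08 and -0.04 with it.

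The 5 mitochondrial genes included the 2 largest rises with Laponite alone and moved in the same direction. All 5 rose in the gels over IR-Con, where 27.4% of all genes were called higher. All 5 rose with Laponite alone, where 2.91% of all genes were called higher. None was called with Laponite in the presence of IL-12 (1 of the 5 had an unadjusted p under 0.05), where 4.12% of all genes were called. The interaction was called lower in all 5, and in 2.14% of all genes. The medians over the 5 were 0.42 for Laponite without IL-12, 0.02 with IL-12 and -0.49 for the interaction. Bnip3 (chromosome 7, 138890836 to 138909519, minus strand, GRCm38) encodes an outer-membrane receptor that marks mitochondria for removal by autophagy. Bnip3 had 173, 175 and 176 CPM in Gel/Laponite, against 108, 114 and 113 CPM in Gel, and 143, 148 and 152 CPM in Gel/Laponite@IL-12, against 154, 149 and 152 CPM in Gel/IL-12. Bnip3 had 70.1, 82.5 and 55.3 CPM in IR-Con. Every Gel/Laponite library lay above every other library, and every Gel library below every other gel library. The log2 fold change was 0.64 ± 0.034 (adjusted p = 5.59e-28) for Laponite without IL-12 and -0.043 ± 0.034 (adjusted p = 0.657) with IL-12. The interaction was -0.68 ± 0.048 (adjusted p = 3.83e-20), and the rise in the gels over IR-Con 1.06 ± 0.073 (adjusted p = 2.34e-10). IL-12 alone raised Bnip3 (0.44), and IL-12 added to the clay lowered it (-0.24).

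Higd1a (chromosome 9, 121848563 to 121858362, minus strand) encodes a small protein of the inner mitochondrial membrane that associates with the respiratory chain. Higd1a had 57.96, 60.7 and 55.9 CPM in Gel/Laponite, against 36.1, 34.98 and 37.8 CPM in Gel, and 44.6, 52.7 and 51.3 CPM in Gel/Laponite@IL-12, against 45.5, 47.7 and 46.8 CPM in Gel/IL-12. Higd1a had 22.4, 20.7 and 29.1 CPM in IR-Con. As for Bnip3, the 3 Gel/Laponite libraries were the highest of all 15 and the 3 Gel libraries the lowest of the gels. Laponite without IL-12 gave a log2 fold change of 0.68 ± 0.056 (adjusted p = 3.96e-17), the largest of the 38 genes, and with IL-12 0.082 ± 0.055 (adjusted p = 0.562). The interaction was -0.59 ± 0.078 (adjusted p = 2.64e-08). Fam162a (chromosome 16, 36043761 to 36071594, minus strand), a mitochondrial protein linked to cell death under low oxygen, followed the same order. Fam162a had 147, 139.8 and 142 CPM in Gel/Laponite, against 105, 106 and 107 CPM in Gel, and 122, 134 and 132 CPM in Gel/Laponite@IL-12, against 126, 126 and 130.1 CPM in Gel/IL-12. Fam162a had 59.7, 55.3 and 71.00 CPM in IR-Con. Its Gel/Laponite libraries were again above all others, and its Gel libraries below the other gels and above IR-Con. The log2 fold change for Laponite was 0.42 ± 0.036 (adjusted p = 1.35e-16) without IL-12 and 0.019 ± 0.036 (adjusted p = 0.897) with it, and the interaction was -0.41 ± 0.051 (adjusted p = 4.67e-09).

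Ak4 encodes an adenylate kinase of the mitochondrial matrix. Ak4 had 50.1, 56.7 and 52.8 CPM in Gel/Laponite, against 41.3, 40.3 and 39.3 CPM in Gel, and 44.3, 47.3 and 46.5 CPM in Gel/Laponite@IL-12, against 52.7, 46.1 and 48.7 CPM in Gel/IL-12. Ak4 had 19.1, 21.8 and 21.97 CPM in IR-Con. The Gel libraries were the lowest of the gels and the Gel/Laponite and Gel/IL-12 ranges overlapped. Laponite raised Ak4 without IL-12 (0.39 ± 0.055, adjusted p = 8.08e-08), and with IL-12 the log2 fold change was -0.10 ± 0.055 (adjusted p = 0.436), with an interaction of -0.49 ± 0.078 (adjusted p = 2.93e-06). Bnip3l, the sister mitophagy receptor of Bnip3 (also called NIX), was the most abundant of the 5 in CPM and moved least. Bnip3l had 321, 342 and 331 CPM in Gel/Laponite, against 277, 274 and 269.8 CPM in Gel, and 318, 325 and 325 CPM in Gel/Laponite@IL-12, against 313, 308 and 302 CPM in Gel/IL-12. Bnip3l had 276, 272 and 235 CPM in IR-Con. Gel and IR-Con overlapped here, whereas the other 3 gels lay above both. The Laponite log2 fold change was 0.27 ± 0.027 (adjusted p = 8.31e-13) without IL-12 and 0.065 ± 0.027 (adjusted p = 0.216) with it, and the interaction was -0.20 ± 0.039 (adjusted p = 0.000149). Of the 50-base stretches of the annotated transcripts, 52.8% for Bnip3, 75.6% for Higd1a, 79.2% for Bnip3l, 86.7% for Fam162a and 89.8% for Ak4 occur in no other annotated gene, so reads from near-identical copies could have been shared or dropped in counting.

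**Figure D3:**
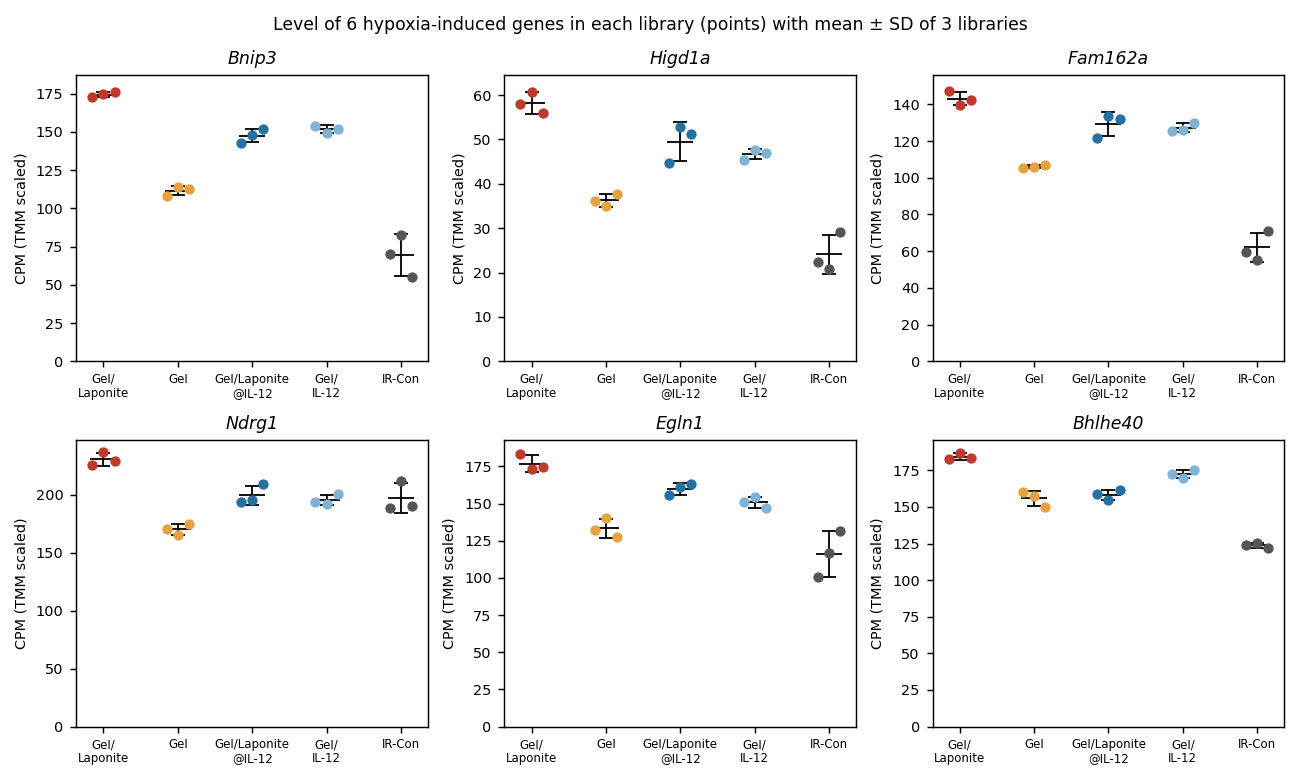
Level in CPM (y axis, from 0) of Bnip3, Higd1a, Fam162a, Ndrg1, Egln1 and Bhlhe40 in each of the 15 libraries (points) by group, with the mean and SD of 3 libraries. In each panel the Gel/Laponite points are the highest; the Gel points are the lowest of the gels in all but Bhlhe40, where they overlap Gel/Laponite@IL-12.

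Of the oxygen sensors, Egln1 and Egln3 rose with the gels, and Egln1 also with Laponite alone. The gel effect of Egln1 was 0.41 ± 0.056 (adjusted p = 2.81e-06). Egln1 (chromosome 8, 124908587 to 124949324, minus strand), the main prolyl hydroxylase acting on HIF, ordered the 4 gels without overlap. Egln1 had 183, 173 and 175 CPM in Gel/Laponite, against 132, 140.2 and 127 CPM in Gel, and 155, 161 and 163 CPM in Gel/Laponite@IL-12, against 151, 154 and 147 CPM in Gel/IL-12. Egln1 had 101, 117 and 131 CPM in IR-Con. The Gel/Laponite libraries were the highest, then Gel/Laponite@IL-12, Gel/IL-12 and Gel. The log2 fold change for Laponite was 0.40 ± 0.034 (adjusted p = 1.61e-16) without IL-12 and 0.079 ± 0.034 (adjusted p = 0.231) with it, and the interaction was -0.32 ± 0.048 (adjusted p = 7.12e-07). Egln3, the hydroxylase known as the most inducible of the family, was among the members with the largest gel effects. Egln3 had 5.47, 6.56 and 7.69 CPM in Gel/Laponite, against 4.86, 3.93 and 5.68 CPM in Gel, and 5.47, 6.27 and 6.07 CPM in Gel/Laponite@IL-12, against 6.204, 5.01 and 4.53 CPM in Gel/IL-12. Egln3 had 0.911, 1.73 and 2.85 CPM in IR-Con. All 12 gel libraries were above the 3 of IR-Con (1.63 ± 0.23, adjusted p = 3.19e-06), and among the gels the ranges overlapped. For Laponite without IL-12 the estimate was 0.44 ± 0.16 (adjusted p = 0.0885), with a 95% interval of 0.13 to 0.75, and it did not pass the threshold.

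Vhl, which recognises hydroxylated HIF, did not pass the threshold for the gels against IR-Con (-0.11 ± 0.049, adjusted p = 0.0569). Vhl had 59.1, 56.6 and 60.9 CPM in Gel/Laponite, against 52.1, 53.3 and 51.4 CPM in Gel, and 50.6, 57.6 and 55.7 CPM in Gel/Laponite@IL-12, against 57.3, 53.4 and 53.5 CPM in Gel/IL-12. Vhl had 60.2, 61.4 and 56.9 CPM in IR-Con. Gel/Laponite lay above Gel without overlap. Every Gel library was below every IR-Con library, whereas each of the other gels overlapped IR-Con. Taken singly, Gel over IR-Con was called lower. That call ended without Gel replicate 1 or 3 or IR-Con replicate 2 (adjusted p 0.0525 to 0.063). It also ended with no filter on low counts (0.15), with limma voom (0.132) and with only the 6 libraries compared (0.0982). The call for Laponite without IL-12 (0.16 ± 0.051, adjusted p = 0.0385) ended when any of Gel replicates 1, 2 and 3 or Gel/Laponite replicates 1 and 3 was left out (adjusted p 0.0661 to 0.173). Egln2, the third hydroxylase, passed in none of the gel effect, Laponite or interaction tests, with 40.1 to 49.3 CPM in Gel/Laponite, 43.2 to 47.0 CPM in Gel and 32.5 to 50.6 CPM in IR-Con.

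Among the HIF subunits, Hif1a rose with the gels and did not pass the threshold in any Laponite comparison. Hif1a had 426, 447 and 448 CPM in Gel/Laponite, against 418, 411 and 427 CPM in Gel, and 457, 465 and 447 CPM in Gel/Laponite@IL-12, against 443, 459 and 433 CPM in Gel/IL-12. Hif1a had 291, 282 and 219.9 CPM in IR-Con. All 12 gel libraries were above all 3 IR-Con libraries, and Gel, the lowest of the gels, overlapped Gel/Laponite. The gel effect was 0.73 ± 0.059 (adjusted p = 1.32e-09), or 1.66-fold, and Laponite without IL-12 gave 0.065 ± 0.026 (adjusted p = 0.15). Epas1, the other alpha subunit, was scarce. Epas1 had 1.24, 1.44 and 2.67 CPM in Gel/Laponite, against 2.22, 1.16 and 1.76 CPM in Gel, and 2.31, 1.599 and 1.92 CPM in Gel/Laponite@IL-12, against 1.904, 1.74 and 2.03 CPM in Gel/IL-12. Epas1 had 0.425, 1.15 and 1.18 CPM in IR-Con. IR-Con replicate 1, at 0.425 CPM, was well below the rest, and of the gels Gel reached into the range of IR-Con. The gel effect was 1.00 ± 0.31 (adjusted p = 0.00982), and the call ended without IR-Con replicate 1 (adjusted p = 0.0949) and with limma voom (0.221).

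Arnt, the common partner subunit, fell in the gels over IR-Con (-0.25 ± 0.037, adjusted p = 1.05e-05), with 123 to 134 CPM over the gels and 148 to 159.7 CPM in IR-Con. Arnt2, its relative best known from neurons, was the only member that fell with Laponite without IL-12. Arnt2 had 26.6, 28.9 and 34.9 CPM in Gel/Laponite, against 34.7, 35.6 and 34.96 CPM in Gel, and 34.2, 33.4 and 33.5 CPM in Gel/Laponite@IL-12, against 30.8, 33.9 and 33.1 CPM in Gel/IL-12. Arnt2 had 32.4, 27.1 and 34.4 CPM in IR-Con. Gel/Laponite replicates 1 and 2 were below the other gel libraries and replicate 3 was level with Gel. The log2 fold change was -0.23 ± 0.068 (adjusted p = 0.0273), and the call ended when any of the Gel libraries or Gel/Laponite replicate 1 or 2 was left out (adjusted p 0.0673 to 0.302). On the authors' FPKM scale, meant to be per length, the level of Hif1a in Gel/Laponite was 69.9 FPKM, of Arnt 28.8 FPKM and of Epas1 0.269 FPKM, so that Hif1a was the more abundant alpha subunit. The FPKM of Arnt2 did not follow its counts and is not used as a level. That of Arnt also departed from its counts in Gel (20.6 to 29.5 FPKM beside 129 to 133 CPM).

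The secreted factors rose with the gels, 4 of 4 where 27.4% of all genes were called higher, and only Vegfa was called for Laponite without IL-12. Stc1, the gene of the glycoprotein hormone stanniocalcin, had the largest gel effect of all 38 genes. Stc1 had 52.1, 53.3 and 50.6 CPM in Gel/Laponite, against 50.1, 55.8 and 49.98 CPM in Gel, and 54.02, 53.1 and 55.5 CPM in Gel/Laponite@IL-12, against 60.1, 63.7 and 58.5 CPM in Gel/IL-12. Stc1 had 7.77, 5.76 and 6.05 CPM in IR-Con. The gel libraries lay at 49.98 to 63.7 CPM and those of IR-Con at 5.76 to 7.77 CPM, a rise of 8.33-fold (3.06 ± 0.082, adjusted p = 2.53e-17). Among the gels Gel/IL-12 was the highest, above all other gel libraries. Laponite with IL-12 lowered Stc1 (-0.17 ± 0.050, adjusted p = 0.031), a call that ended when any of 5 of the 6 libraries compared was left out (adjusted p 0.0502 to 0.249), and IL-12 alone raised it (0.22 ± 0.050, adjusted p = 0.0038), a call that ended without Gel replicate 1 or 3 or Gel/IL-12 replicate 2 (0.0607 to 0.0885). The interaction did not pass the threshold (-0.16 ± 0.072, adjusted p = 0.246).

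Vegfa, the angiogenic growth factor and a classical HIF target, was among the more abundant members in CPM. Vegfa had 346, 352 and 348 CPM in Gel/Laponite, against 329, 329 and 318 CPM in Gel, and 338, 322 and 342 CPM in Gel/Laponite@IL-12, against 339.7, 347 and 329 CPM in Gel/IL-12. Vegfa had 193, 193 and 214 CPM in IR-Con. All gel libraries were above all IR-Con libraries (0.75 ± 0.041, adjusted p = 2.57e-12), while within the gels Gel/Laponite exceeded Gel by 1.07-fold (0.093 ± 0.027, adjusted p = 0.0248). That call ended without Gel replicate 2 or 3 or Gel/Laponite replicate 2 (adjusted p 0.0539 to 0.175). Stc2, the paralogue of Stc1, was called for Laponite only in the mean over both kinds of gel (0.15 ± 0.044, adjusted p = 0.0224). Stc2 had 36.9, 36.3 and 36.6 CPM in Gel/Laponite, against 31.1, 36.3 and 33.9 CPM in Gel, and 38.9, 42.1 and 39.7 CPM in Gel/Laponite@IL-12, against 36.7, 31.6 and 37.1 CPM in Gel/IL-12. Stc2 had 24.2, 21.6 and 26.98 CPM in IR-Con. Gel/Laponite@IL-12 was above every Gel/IL-12 library. The call ended without Gel replicate 1, Gel/IL-12 replicate 2 or Gel/Laponite@IL-12 replicate 2 (adjusted p 0.0825 to 0.165). Adm, which encodes the vasodilator peptide adrenomedullin, had 0.719 to 2.503 CPM over the gels and 0.425 to 0.973 CPM in IR-Con. Its gel effect was 1.17 ± 0.34 (adjusted p = 0.00583), which limma voom did not call (adjusted p = 0.233).

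Among the collagen-modifying enzymes, P4ha1, P4ha2, Plod1 and Plod2 rose with Laponite alone and none was called higher with IL-12 present. P4ha1 and P4ha2 encode the catalytic subunits of collagen prolyl hydroxylase, which stabilises the collagen triple helix. P4ha1 had 445, 430.1 and 435 CPM in Gel/Laponite, against 377, 377 and 369 CPM in Gel, and 416, 417 and 433 CPM in Gel/Laponite@IL-12, against 403, 399.8 and 411 CPM in Gel/IL-12. P4ha1 had 341, 367 and 344 CPM in IR-Con. The Gel libraries of P4ha1 were the lowest of the gels, and every Gel/Laponite@IL-12 library was above every Gel/IL-12 library, a difference that did not pass the threshold (0.057 ± 0.026, adjusted p = 0.258). Laponite without IL-12 gave 0.22 ± 0.026 (adjusted p = 2.99e-10), and the interaction was -0.16 ± 0.036 (adjusted p = 0.00249). P4ha2 differed from P4ha1 in its large gel effect. P4ha2 had 127, 139 and 133 CPM in Gel/Laponite, against 108, 115 and 111 CPM in Gel, and 131, 130.3 and 130.1 CPM in Gel/Laponite@IL-12, against 132, 127 and 135 CPM in Gel/IL-12. P4ha2 had 44.4, 53.4 and 56.3 CPM in IR-Con. The gels exceeded IR-Con by 2.46-fold (1.30 ± 0.058, adjusted p = 7.97e-14), Gel was the lowest of the gels and the other 3 gels overlapped. The Laponite log2 fold change was 0.25 ± 0.036 (adjusted p = 1.66e-07) without IL-12 and -0.012 ± 0.036 (adjusted p = 0.943) with it, with an interaction of -0.26 ± 0.051 (adjusted p = 0.000195).

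Plod1 and Plod2 encode lysyl hydroxylases, which prepare collagen for cross-linking. Plod1 had 207, 210.0 and 201 CPM in Gel/Laponite, against 165, 169.5 and 171 CPM in Gel, and 195, 186 and 197 CPM in Gel/Laponite@IL-12, against 183, 181 and 187 CPM in Gel/IL-12. Plod1 had 152, 163 and 197 CPM in IR-Con. Plod1 was highest in Gel/Laponite, above all other libraries, while IR-Con spanned the range of the other gels. The Laponite effect was 0.29 ± 0.031 (adjusted p = 1.2e-11) without IL-12, 0.065 ± 0.031 (adjusted p = 0.305) with IL-12, and the interaction -0.22 ± 0.044 (adjusted p = 0.00035). The gel effect of Plod1 was 0.13 ± 0.054 (adjusted p = 0.0439), and it ended when any of 12 of the 15 libraries was left out (adjusted p 0.0511 to 0.388) and with limma voom (0.0933). Plod2 went the other way in the gels over IR-Con. Plod2 had 148, 147 and 150.2 CPM in Gel/Laponite, against 123, 127 and 124 CPM in Gel, and 141, 145 and 148 CPM in Gel/Laponite@IL-12, against 133, 131 and 137 CPM in Gel/IL-12. Plod2 had 205, 217 and 168 CPM in IR-Con. Every gel library was below every IR-Con library (-0.51 ± 0.051, adjusted p = 2.88e-08), and within the gels both gels with Laponite were above both without. Laponite gave 0.25 ± 0.034 (adjusted p = 4.75e-08) without IL-12 and 0.11 ± 0.034 (adjusted p = 0.0521) with IL-12, and the interaction did not pass the threshold (-0.14 ± 0.048, adjusted p = 0.0918).

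Lox encodes lysyl oxidase, the enzyme that starts collagen and elastin cross-links, and was by far the most abundant member. Lox had 5911, 5972 and 6117 CPM in Gel/Laponite, against 5891, 5901 and 5982 CPM in Gel, and 5716, 5756 and 5683 CPM in Gel/Laponite@IL-12, against 6095, 6118 and 6043 CPM in Gel/IL-12. Lox had 4907, 4938 and 4936 CPM in IR-Con. Gel/Laponite@IL-12 was the lowest of the gels without overlap, and all gels were above IR-Con. The differences were small: -0.094 ± 0.015 (adjusted p = 2.17e-06) for Laponite with IL-12, 0.011 ± 0.015 (adjusted p = 0.776) without, -0.10 ± 0.021 (adjusted p = 0.000381) for the interaction and 0.27 ± 0.031 (adjusted p = 2.53e-07) for the gels over IR-Con. On the authors' length-scaled values Lox stood at 1254 FPKM in Gel/Laponite, against 99.4 FPKM for P4ha1, 50.9 FPKM for Plod1, 37.9 to 52.7 FPKM for P4ha2 and 34.4 FPKM for Plod2 in the same group.

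Car9 and Car12, membrane carbonic anhydrases that help cells export acid and are used elsewhere as markers of low oxygen, fell in the gels over IR-Con. Car9 had 4.25 to 6.88 CPM over the gels and 7.04 to 9.804 CPM in IR-Con (-0.55 ± 0.12, adjusted p = 0.000395). Car12 had 3.86 to 6.12 CPM over the gels and 7.29 to 8.27 CPM in IR-Con (-0.66 ± 0.11, adjusted p = 2.78e-05). Every gel library of both genes was below every IR-Con library. Car12 was also the member whose Gel/Laponite libraries, at 3.86 to 5.09 CPM, were all below those of Gel, at 5.49 to 6.12 CPM. That difference did not pass the threshold (-0.42 ± 0.16, adjusted p = 0.118).

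Of the transcription factors, Bhlhe40 (chromosome 6, 108660629 to 108666925, plus strand), a repressor of the circadian clock and of lipid genes, was the only member whose Laponite effect was called in opposite directions without and with IL-12. Bhlhe40 had 183, 187 and 183 CPM in Gel/Laponite, against 160.0, 157 and 150.0 CPM in Gel, and 159, 154 and 162 CPM in Gel/Laponite@IL-12, against 173, 169.8 and 175 CPM in Gel/IL-12. Bhlhe40 had 124, 126 and 122 CPM in IR-Con. The Gel/Laponite libraries were above all others, Gel/IL-12 came next, and Gel/Laponite@IL-12 overlapped Gel. Laponite gave 0.24 ± 0.032 (adjusted p = 3.43e-08) without IL-12 and -0.13 ± 0.032 (adjusted p = 0.00576) with it, and the interaction was -0.36 ± 0.046 (adjusted p = 4.53e-09). The call with IL-12 ended without Gel/IL-12 replicate 3 or Gel/Laponite@IL-12 replicate 2 (adjusted p = 0.0551 and 0.0581). Its paralogue Bhlhe41 had 7.39 to 12.3 CPM over the gels and 6.92 to 8.27 CPM in IR-Con. The gel effect of Bhlhe41 was 0.33 ± 0.12 (adjusted p = 0.0244), and was not called by limma voom (adjusted p = 0.316) or once IR-Con replicate 1 or 2 was left out (0.101 and 0.0747).

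Mxi1, an antagonist of MYC, rose in the gels over IR-Con (0.33 ± 0.053, adjusted p = 2.1e-05). Mxi1 had 94.00, 98.2 and 93.2 CPM in Gel/Laponite, against 82.2, 80.8 and 90.3 CPM in Gel, and 78.9, 89.98 and 91.3 CPM in Gel/Laponite@IL-12, against 92.5, 85.8 and 86.8 CPM in Gel/IL-12. Mxi1 had 75.2, 67.9 and 68.01 CPM in IR-Con. Gel/Laponite was the highest group, and Gel/Laponite@IL-12 overlapped Gel/IL-12. Laponite without IL-12 gave 0.17 ± 0.045 (adjusted p = 0.0171), which ended without Gel replicate 1 or 2 or Gel/Laponite replicate 2 (adjusted p 0.109 to 0.134). Rora, a nuclear receptor of the clock, did not pass the threshold for the gels over IR-Con (-0.078 ± 0.051, adjusted p = 0.204). Rora had 51.4, 51.5 and 51.1 CPM in Gel/Laponite, against 44.9, 42.3 and 45.1 CPM in Gel, and 49.9, 49.6 and 51.00 CPM in Gel/Laponite@IL-12, against 45.7, 49.05 and 45.2 CPM in Gel/IL-12. Rora had 55.2, 49.5 and 47.2 CPM in IR-Con. Both gels with Laponite lay above both without. The log2 fold change was 0.21 ± 0.053 (adjusted p = 0.00551) without IL-12 and 0.10 ± 0.052 (adjusted p = 0.384) with IL-12, and the first call ended without Gel replicate 2 (adjusted p = 0.0651). The histone demethylase gene Kdm3a rose with Laponite alone with an adjusted p close to the threshold (0.10 ± 0.032, adjusted p = 0.0479). Kdm3a had 189, 194 and 196 CPM in Gel/Laponite, against 180.1, 174 and 184 CPM in Gel, and 183, 192 and 191 CPM in Gel/Laponite@IL-12, against 178, 185 and 189 CPM in Gel/IL-12. Kdm3a had 171, 198 and 157 CPM in IR-Con. Gel/Laponite was above Gel without overlap while the IL-12 gels reached into both ranges, and the call ended without any of 6 of the 12 libraries (adjusted p 0.0526 to 0.266). Kdm4b, a demethylase of the same histone mark, had 52.5 to 61.9 CPM over the gels and 43.2 to 61.6 CPM in IR-Con. It was called higher in the gels (0.23 ± 0.074, adjusted p = 0.0129), and no longer so once IR-Con replicate 1 or 2 was left out (adjusted p = 0.152 and 0.0966).

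Ndrg1 (chromosome 15, 66929318 to 66969640, minus strand) encodes a stress-responsive protein long used as a marker of low oxygen. Its level separated some of the gels, while the average of the gels was not called against IR-Con. Ndrg1 had 226, 237 and 229 CPM in Gel/Laponite, against 170.1, 165 and 175 CPM in Gel, and 194, 196 and 209 CPM in Gel/Laponite@IL-12, against 194, 192 and 201 CPM in Gel/IL-12. Ndrg1 had 189, 212 and 190.4 CPM in IR-Con. Gel/Laponite lay above every other library and Gel below every other library, with IR-Con between them among the IL-12 gels. The gel effect, an average over the gels, was 0.0049 ± 0.042 (adjusted p = 0.93). Taken singly, Gel over IR-Con was called lower and Gel/Laponite over IR-Con higher. The call for Gel ended with only the 6 libraries compared (adjusted p = 0.0587). The Laponite effect was 0.43 ± 0.031 (adjusted p = 6.28e-20) without IL-12 and 0.026 ± 0.031 (adjusted p = 0.805) with it, and the interaction was -0.41 ± 0.044 (adjusted p = 6.01e-11). IL-12 raised Ndrg1 in the gel without Laponite (0.20) and lowered it in the gel with Laponite (-0.21).

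Anxa2, a calcium-dependent phospholipid-binding protein, also rose with Laponite alone and had a called interaction, from a lower level than IR-Con. Anxa2 had 624, 607 and 618 CPM in Gel/Laponite, against 571, 571 and 554 CPM in Gel, and 563, 599 and 580.0 CPM in Gel/Laponite@IL-12, against 609.9, 597 and 604 CPM in Gel/IL-12. Anxa2 had 717, 782 and 743 CPM in IR-Con. All gel libraries were below IR-Con (-0.34 ± 0.035, adjusted p = 5.41e-08), and Gel/Laponite was above Gel. The Laponite effect was 0.12 ± 0.024 (adjusted p = 0.000292) without IL-12 and -0.060 ± 0.024 (adjusted p = 0.171) with it, and the interaction was -0.18 ± 0.034 (adjusted p = 0.000137). Pam, which amidates peptide hormones, was the only member whose interaction was called higher. Of the 38 genes 6 had a positive interaction. Pam had 149, 145 and 152 CPM in Gel/Laponite, against 151, 158 and 159 CPM in Gel, and 157, 157 and 162 CPM in Gel/Laponite@IL-12, against 147, 152 and 149 CPM in Gel/IL-12. Pam had 181, 183 and 156 CPM in IR-Con. Gel/Laponite@IL-12 was above Gel/IL-12, while Gel/Laponite overlapped Gel with a lower mean. The interaction was 0.16 ± 0.047 (adjusted p = 0.0358), and the call ended without any of 8 of the 12 gel libraries (adjusted p 0.0503 to 0.119). The 2 Laponite effects behind it were 0.083 with IL-12 and -0.077 without, neither past the threshold.

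Ankrd37, a small ankyrin-repeat protein and a known HIF target, had the second largest gel effect (1.82 ± 0.20, adjusted p = 1.39e-07). Ankrd37 had 5.22, 6.39 and 7.305 CPM in Gel/Laponite, against 4.799, 4.25 and 4.31 CPM in Gel, and 4.61, 5.88 and 4.59 CPM in Gel/Laponite@IL-12, against 4.91, 5.96 and 5.54 CPM in Gel/IL-12. Ankrd37 had 0.8500, 1.86 and 1.81 CPM in IR-Con. All gel libraries were above 4 CPM and all IR-Con libraries under 2 CPM. Its log2 fold change for Laponite without IL-12 was 0.49, with an adjusted p that rounds to 0.05 and lay just under the threshold, and that ended without any of 8 of the 12 libraries (adjusted p 0.054 to 0.271). Ankrd37 shares exonic bases with Lrp2bp and Ufsp2 on the other strand, and whether strand was used in counting is not given. Ddit4, an inhibitor of mTOR signalling under stress, had the fourth largest gel effect. Ddit4 had 102, 97.8 and 98.1 CPM in Gel/Laponite, against 92.2, 95.2 and 95.6 CPM in Gel, and 98.95, 93.2 and 89.5 CPM in Gel/Laponite@IL-12, against 90.5, 101 and 101 CPM in Gel/IL-12. Ddit4 had 27.6, 30.01 and 49.7 CPM in IR-Con. Gels and IR-Con did not overlap (1.43 ± 0.13, adjusted p = 4.98e-07), and the gels lay within 89.5 to 102 CPM, with no Laponite comparison past the threshold. IR-Con replicate 3 was well above the other IR-Con libraries of this gene.

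Hilpda, a lipid droplet protein that inhibits lipolysis, rose in the gels over IR-Con (0.85 ± 0.085, adjusted p = 3.33e-08). Hilpda had 24.7, 23.7 and 27.4 CPM in Gel/Laponite, against 22.4, 20.8 and 20.5 CPM in Gel, and 19.8, 23.5 and 22.6 CPM in Gel/Laponite@IL-12, against 21.1, 21.8 and 22.4 CPM in Gel/IL-12. Hilpda had 13.2, 10.7 and 13.7 CPM in IR-Con. Gel/Laponite was above Gel, and the IL-12 gels overlapped each other. The call for Laponite without IL-12 (0.24 ± 0.078, adjusted p = 0.0499) ended without any of 8 of the 12 libraries (adjusted p 0.0508 to 0.295). Tfrc, the transferrin receptor through which cells take up iron, rose in the gels (1.10 ± 0.054, adjusted p = 3.77e-13). Tfrc had 109, 99.1 and 107 CPM in Gel/Laponite, against 98.4, 93.5 and 95.4 CPM in Gel, and 101, 98.9 and 102 CPM in Gel/Laponite@IL-12, against 98.5, 94.6 and 97.9 CPM in Gel/IL-12. Tfrc had 51.7, 44.6 and 42.6 CPM in IR-Con. The levels were about 2.15-fold those of IR-Con, and the gels lay close together. Laponite without IL-12 gave 0.12 ± 0.038 (adjusted p = 0.0348), ending without Gel replicate 2 or 3 or Gel/Laponite replicate 1 or 3 (adjusted p 0.108 to 0.21). Selenbp1, a selenium-binding methanethiol oxidase, had 6.24 to 8.78 CPM over the gels and 4.03 to 5.100 CPM in IR-Con (0.71 ± 0.13, adjusted p = 8.26e-05). Limma voom did not call it (adjusted p = 0.0595), and 53.7% of its 50-base stretches occur in no other annotated gene.

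**Figure D4:**
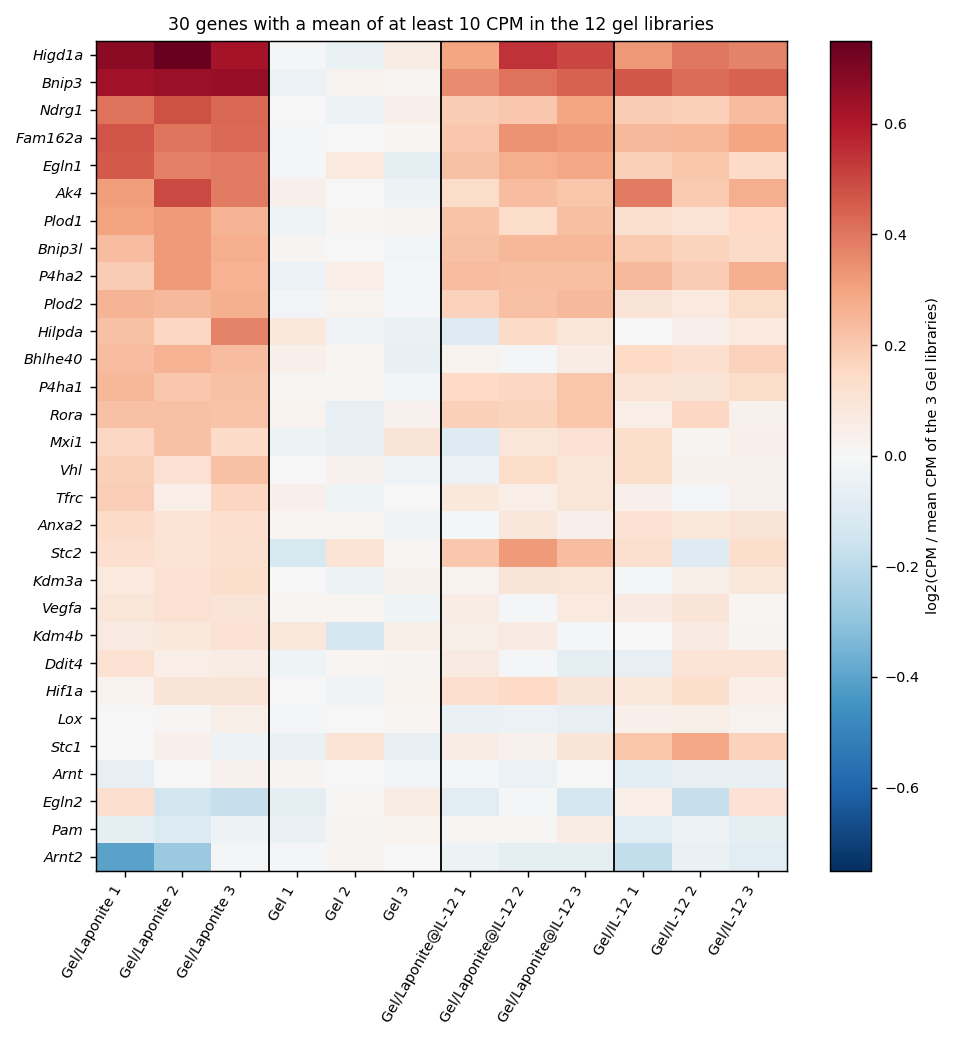
Level of each of the 30 members with a mean of at least 10 CPM in the 12 gel libraries, as log2 of its CPM over the mean CPM of the 3 Gel libraries (colour, from -0.4 to 0.74), ordered by Laponite effect without IL-12. In the rows of Higd1a, Bnip3, Ndrg1, Fam162a and Egln1 the Gel/Laponite columns are the darkest red, and the columns of both IL-12 gels lie between them and Gel. Other rows depart from this order: Stc1 is highest in Gel/IL-12, and Lox is lowest in Gel/Laponite@IL-12.

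Other genes of the HIF pathway outside glycolysis were taken through the same comparisons. This list, like the members, was chosen with earlier results of these data known and uses the same libraries, so its counts are not separate evidence. Of 41 such genes 35 could be tested. In the gels over IR-Con 16 rose and 10 fell (27.4% of all genes were called higher and 27.6% lower), so that the share that fell was near that of all genes. With Laponite alone, where 5.16% of all genes were called, 12 rose and 1, Cited2, fell (-0.11 ± 0.027, adjusted p = 0.007), with a median log2 fold change of 0.11. Ero1l, an oxidase of the endoplasmic reticulum, had the smallest p (0.44 ± 0.033, adjusted p = 1.13e-19), followed by the metal-binding Mt1 (0.35 ± 0.029, adjusted p = 2.4e-17), the sterol regulator Insig2 (0.35 ± 0.042, adjusted p = 4.26e-10) and the lipase inhibitor Angptl4 (0.31 ± 0.044, adjusted p = 2.02e-07). With Laponite in the presence of IL-12, where 4.12% of all genes were called, 5 rose and 3 fell, and the median was 0.003. Insig2 was higher there too (0.38 ± 0.042, adjusted p = 1.19e-11), whereas no member was. The interaction was lower in 8 of the 35 genes and higher in 1 (3.55% of all genes called), with Ero1l at -0.39 ± 0.046 (adjusted p = 1.11e-09) and Mt1 at -0.33 ± 0.041 (adjusted p = 2.69e-09).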

How the data were processed

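RNA-seq of irradiated BM-MSCs was analysed in 5 groups of 3 libraries, grouped by the labels. The authors deposited a read count per gene and library, and beside it an FPKM value, meant to be per length and depth, which for some genes did not follow the counts. The genome build is mm10 per the labels, and the aligner, the counting tool, its annotation and the use of strand are not given in the sources used here. Deposited columns of the authors' own comparisons (group means, fold changes and p-values) were not used. The count and FPKM columns of every library were matched to its label.

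Counts were analysed in R 4.3.3 with edgeR 4.0.16: genes were kept by filterByExpr (minimum count 10, minimum total 15), scaled by TMM and tested by quasi-likelihood with robust dispersion and Benjamini-Hochberg adjustment. Comparisons against IR-Con used 15 libraries (10 residual degrees of freedom), and comparisons among gels the 12 gel libraries (8). Median depth was 16126329 counts. Alternatives were DESeq2 1.42.0, its size factors in edgeR, limma voom (limma 3.58.1), no filter, a replicate block, all 15 or only the 6 libraries compared, and leaving out each library. IL-12 without and with Laponite were compared after the data had been seen. The fits were also run on simulated counts with known changes, drawn with a single spread per group. Those counts hold no differences in spread between genes and no outlying library, so they do not test the fits under these conditions. FPKM values served only to set levels of different genes side by side. Gene positions come from GENCODE M21 (GRCm38) by Ensembl ID, since the coordinates in the table do not match that build, and promoter windows from RefSeq (GRCm38.p6), matched by symbol and printed only outside the M21 gene. Figures were drawn with matplotlib 3.10.9.

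The members, the HIF pathway list and the marker lists were chosen with earlier results of these data known. Values in every library are given for members called in any Laponite comparison, in the interaction or in the IL-12 effect, for the 6 largest gel effects, and for Hif1a, Epas1, Egln3 and Vegfa. Other members are given by range. For HIF pathway genes outside the members, up to 4 of smallest p are named, with Cited2 as the one that fell with Laponite alone and Insig2, Ero1l and Mt1 named again in other comparisons. The result of another marker list is not reported here.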

Additional observations from a re-analysis of the deposited data

Results flagged for a closer look

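The Laponite effect with IL-12 minus that without it differed from 0 by the interaction test of edgeR, adjusted over all genes, in 14 members. Over all genes tested 3.55% were called (1.42% higher, 2.14% lower). None of the 14 was called with all 15 libraries in one fit. The values given are differences of log2 fold changes, and a negative value means a smaller or more negative Laponite effect with IL-12. The largest were Bnip3 at -0.68 and Higd1a at -0.59, followed by Ak4 at -0.49, Fam162a at -0.41, Ndrg1 at -0.41, Bhlhe40 at -0.36 and Egln1 at -0.32. P4ha2 stood at -0.26, Plod1 at -0.22, Bnip3l at -0.20, Anxa2 at -0.18, P4ha1 at -0.16 and Lox at -0.10. Pam, at 0.16, was the one called in the other direction. In all of these but Lox and Pam, Gel/Laponite over Gel was called higher, and in none was Gel/Laponite@IL-12 over Gel/IL-12 called higher.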

How the results depend on the processing

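Over 22 alternative settings no member's fold change that had been called changed its sign. The fit with all 15 libraries, in which the spread of IR-Con enters the error of the gel comparisons, moved most: Laponite without IL-12 called 9 members, the mean Laponite effect 7, and Laponite with IL-12, the IL-12 effect, the interaction, IL-12 without Laponite and IL-12 with Laponite 0 each. With no filter on low counts the IL-12 effect called 1, Stc1, and neither Bnip3 nor P4ha2. Leaving out each library in turn, the gel effect called 28 to 35 members, Gel over IR-Con 25 to 34, Gel/IL-12 over IR-Con 26 to 33, Gel/Laponite over IR-Con 30 to 34, Gel/Laponite@IL-12 over IR-Con 27 to 34, Laponite without IL-12 13 (without Gel replicate 2) to 22, Laponite with IL-12 2 to 4, the Laponite effect 12 to 17, the IL-12 effect 0 (without Gel replicate 1) to 3, the interaction 13 to 15, IL-12 without Laponite 9 to 13 and IL-12 with Laponite 4 (without Gel/Laponite@IL-12 replicate 1) to 9. Of the 14 interactions, 13 were kept under every alternative but the 15-library fit, with Pam the exception, and of the 22 calls for Laponite without IL-12, 13 were. DESeq2 called 16 and limma voom 18 for Laponite without IL-12. Replicate numbers did not pair the libraries (30 same-numbered pairs, correlation of deviations -0.072 to 0.041, with 2 of 15 libraries closest to their own number), and with a replicate block the counts were 32 for the gel effect, 20 for Laponite without IL-12, 3 with IL-12 and 14 for the interaction. Epas1 and Adm had 7 to 42 counts per library, and the 95% intervals of their log2 fold changes for Laponite without IL-12 were -0.52 to 0.59 and -0.43 to 0.80. Whether strand was used in counting, which bears on the 18 members that share exonic bases with another gene, was not tested.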

Other observations

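The authors' FPKM values and the counts of Ak4 and Arnt2 did not run in parallel, and other members diverged in single groups. In Gel, Arnt ran from 20.6 to 29.5 FPKM beside 129 to 133 CPM, and Hilpda from 10.6 to 17.9 FPKM beside 20.5 to 22.4 CPM. Vegfa ran from 78.7 to 105 FPKM in Gel/IL-12, beside 329 to 347 CPM. In CPM, replicates of Ak4 lay close together in every group, whereas in FPKM they ran from 9.04 to 10.2 in Gel/Laponite, 1.16 to 7.27 in Gel, 1.57 to 4.76 in Gel/Laponite@IL-12, 4.63 to 9.77 in Gel/IL-12 and 0.517 to 3.75 in IR-Con. Arnt2 ran from 1.29 to 3.72 FPKM in Gel/Laponite and 0.306 to 3.95 FPKM in IR-Con, beside 26.6 to 34.9 CPM in Gel/Laponite and 27.1 to 34.4 CPM in IR-Con. No comparison between groups here rests on FPKM values.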
